A study of Eucalyptus grandis and Eucalyptus globulus with 10 samples.

Results

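The 4 arrays compared here held mature leaf blade and differentiating xylem of Eucalyptus grandis clone A, and they were chosen by their labels from the 10 arrays of the study. Both tissues were taken from the same 2 ramets, which are field-grown trees of 1 genotype that were 4 years old, so each tree gave 1 leaf array and 1 xylem array. The other 6 arrays held xylem of E. grandis clone B (2 ramets), E. globulus clone A (2 ramets) and E. globulus clone B (2 ramets), all from field-grown trees of the same age. Leaf was sampled from a single clone, so a leaf result describes 1 genotype. The leaf blades had their central vein removed before extraction, and the xylem was scraped off the trunk once the bark had been taken away, per the labels' protocols. Total RNA was labelled with Cy3, and each sample was hybridised to its own array, on which a feature (the probe set for 1 transcript) was printed in 2 blocks, as a rule with 9 probe pairs per block.

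The leaf blade is the photosynthetic organ of the tree, and its transcripts are known to be rich in products for light harvesting, carbon fixation and chloroplast upkeep. Differentiating xylem is the wood-forming tissue next to the cambium, where cells lay down a secondary wall of cellulose, xylan and lignin and then undergo programmed death. Comparing both in the same trees asks which transcripts set a photosynthetic tissue apart from a wood-forming one when the genotype is held constant. A bulk tissue sample cannot tell fewer cells of a type from less RNA per cell. The files gave a feature ID and no gene, and 0 of the 21413 IDs matched the reference table of RefSeq genes, so transcripts are given by ID, no pathway is named, and the labelled tissues could not be checked against marker genes. No sequence could be shown for the same reason.

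The arrays had similar brightness, with median intensities between 219 and 235 expression units over all 10. The leaf arrays stood apart from all xylem arrays, with correlations of log2 intensity across features between 0.604 and 0.747, against 0.906 between the leaf arrays and 0.886 to 0.981 between xylem arrays. A value table of the whole series named its columns otherwise, because only 1 of its 10 columns held the values of the array file deposited for that sample and 9 held those of another sample. The columns it named as leaf held values filed for E. globulus clone B xylem. The per-array files gave all results below, and with the table's column names 1 feature was higher in leaf and 0 in xylem (limma, with 1192 at an unadjusted p under 0.05). Both leaf arrays carried a suffix in their image identifiers that no xylem array had, and its meaning was not given, so tissue and whatever the suffix marks cannot be told apart. The array numbers fell in 2 ranges, and xylem ramet 2 was the only clone A array in the lower range.

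Leaf and xylem differed in many of the transcripts measured. The fit took tree as a block and pooled the error of each feature over all 10 arrays. On the log2 scale, 2500 of 21413 features (11.7%) had more signal in leaf and 2770 (12.9%) had more in xylem, at an adjusted p threshold of 0.05 in limma. Together these were 5270 features, or 24.6%. All of them had the same direction in both trees, which a call on the mean of the trees makes nearly certain. Over all 21413 features 58.2% had the same direction. A stricter test, which asked whether the difference exceeded 2-fold (limma's treat), called 1091 features (5.1%) toward leaf and 1038 (4.85%) toward xylem. Among the called features, 2286 were estimated at least 2-fold higher in leaf and 2602 in xylem. At 4-fold the counts were 1165 in leaf and 1140 in xylem, at 16-fold 298 and 210, and at 64-fold 64 and 25. Of all features, 1721 (8.04%) reached 2-fold toward leaf in each of the trees and 2031 (9.48%) toward xylem, and 47 and 19 reached 64-fold in each of them. After quantile normalisation, which gives all arrays the same distribution, the counts at 64-fold were 59 in leaf and 25 in xylem. Whether the size distributions of the directions differ was not tested. The balance of the directions depended on the tree, because a fit that lost leaf or xylem ramet 1, and so rested on the tree of ramet 2, called 2585 features toward leaf and 2067 toward xylem. Without leaf or xylem ramet 2 the counts were 1863 toward leaf and 2293 toward xylem.

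**Figure D1:**
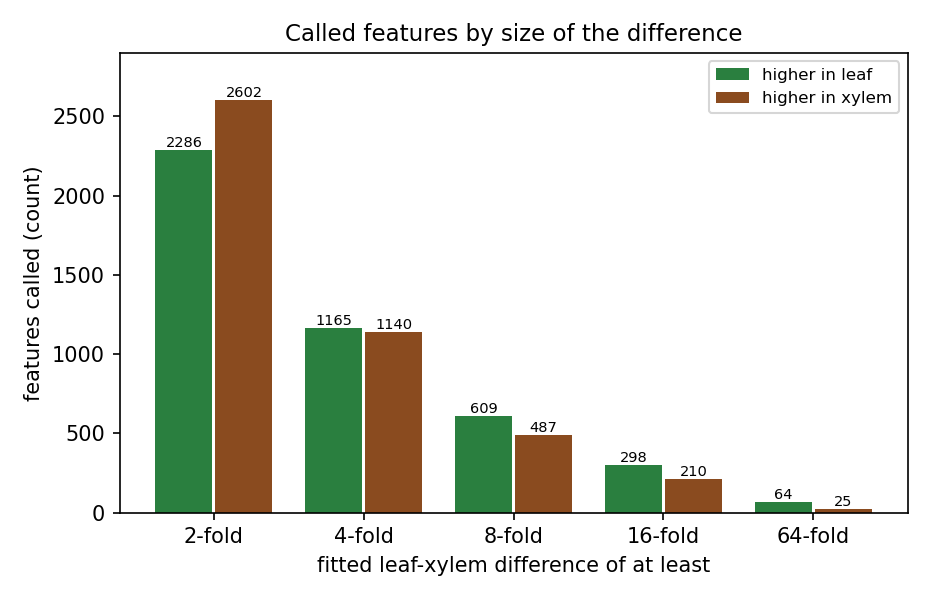
Number of features called by limma in E. grandis clone A whose fitted difference reached 2-, 4-, 8-, 16- or 64-fold, with green bars for leaf-higher and brown bars for xylem-higher features. More features were higher in xylem at 2-fold (2286 in leaf, 2602 in xylem), and more were higher in leaf at 64-fold (64 in leaf, 25 in xylem).

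Features were named by a rule on the size of the difference in the less affected tree. LYPTUS00S00015165 was the leaf transcript with the largest such value. It had log2 intensities of 15.27 and 15.31 in leaf of ramets 1 and 2, against 6.12 and 6.04 in xylem of the same trees. The leaf arrays were near the upper end of the scale and the xylem arrays near the lower end, with no overlap. The xylem of the other clones was at the same low level, from 5.45 to 6.24 over 6 arrays. The tree-wise differences were 9.15 and 9.27, and the fitted difference was 9.21 (SE 0.298, 95% interval 8.56 to 9.86, adjusted p 2.21e-08 in limma). LYPTUS00S00015427, a second leaf transcript of this kind, had 14.89 and 15.36 in leaf against 6.10 and 6.24 in xylem. It too was dim in all other xylem arrays, between 5.78 and 6.61. Its fitted difference was 8.95 (SE 0.269, 95% interval 8.36 to 9.54, adjusted p 1.88e-08 in limma).

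In the other direction, LYPTUS00S00014831 had log2 intensities of 6.73 and 6.26 in leaf of ramets 1 and 2, against 14.27 and 13.91 in xylem. Leaf was dim and xylem bright in both trees, and in the remaining clones xylem was also bright but covered a wider range, from 12.26 to 14.41. Its fitted difference was -7.59 (SE 0.46, 95% interval -8.60 to -6.58, adjusted p 3.84e-07 in limma). LYPTUS00S00016894 had 7.23 and 7.37 in leaf against 14.74 and 14.84 in xylem. Its xylem level held more evenly over the other clones, from 14.18 to 15.20, so that its lowest xylem array of all 8 was still far above leaf. The fitted difference was -7.49 (SE 0.304, 95% interval -8.16 to -6.82, adjusted p 5.14e-08 in limma). Background was not measured separately, so a fold against a dim value holds on the scale of the RMA intensities only.

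Some transcripts were bright in both tissues and differed little. A feature was counted as equal within 2-fold where the 95% interval of its difference lay between -1 and 1 on the log2 scale, and this held for 8266 of 21413 features (38.6%). A further 7877 features (36.8%) were neither called different nor equal within 2-fold, so the data left them undecided. Among the 7706 features above the array median on all 4 arrays, 2551 (33.1%) were equal within 2-fold. Of these bright features 800 (10.4%) were called toward leaf and 1150 (14.9%) toward xylem. Over all features the shares were 38.6% equal, 11.7% toward leaf and 12.9% toward xylem. The choice of bright features leaves out those that were dim in either tissue. LYPTUS00S00005914 was the brightest of the equal features, at 15.13 and 14.73 in leaf of ramets 1 and 2 against 15 and 15.17 in xylem. Its tissues overlapped, and the fitted difference was -0.16 (95% interval -0.78 to 0.47). LYPTUS00S00013460 followed, at 15.34 and 14.87 in leaf against 15.07 and 14.66 in xylem, with a difference of 0.24 (95% interval -0.34 to 0.82). Each stayed equal within 2-fold under 11 of the 15 alternatives run on the per-array files. For LYPTUS00S00005914 the interval passed 2-fold after quantile normalisation and in the tree of ramet 2 alone, where the difference was -0.44, and for LYPTUS00S00013460 in the tree of ramet 1 alone (0.27). The fit of the 4 clone A arrays with tree as a block lost both, and without the block it lost LYPTUS00S00013460. Both were also bright on the other 6 xylem arrays, between 14.62 and 15.14 for LYPTUS00S00005914 and between 15.23 and 15.65 for LYPTUS00S00013460. The count of equal features depended on how the error was estimated, since the 4 clone A arrays alone gave 1731 with tree as a block and 6132 without it. Where the difference rested on 1 tree, with the error taken from the other groups, the count was 2509 to 2956. With the 2 ranges of array numbers as a block it was 3835, and with 50 added to the intensities, which shrinks differences between dim values, it was 11824.

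**Figure D2:**
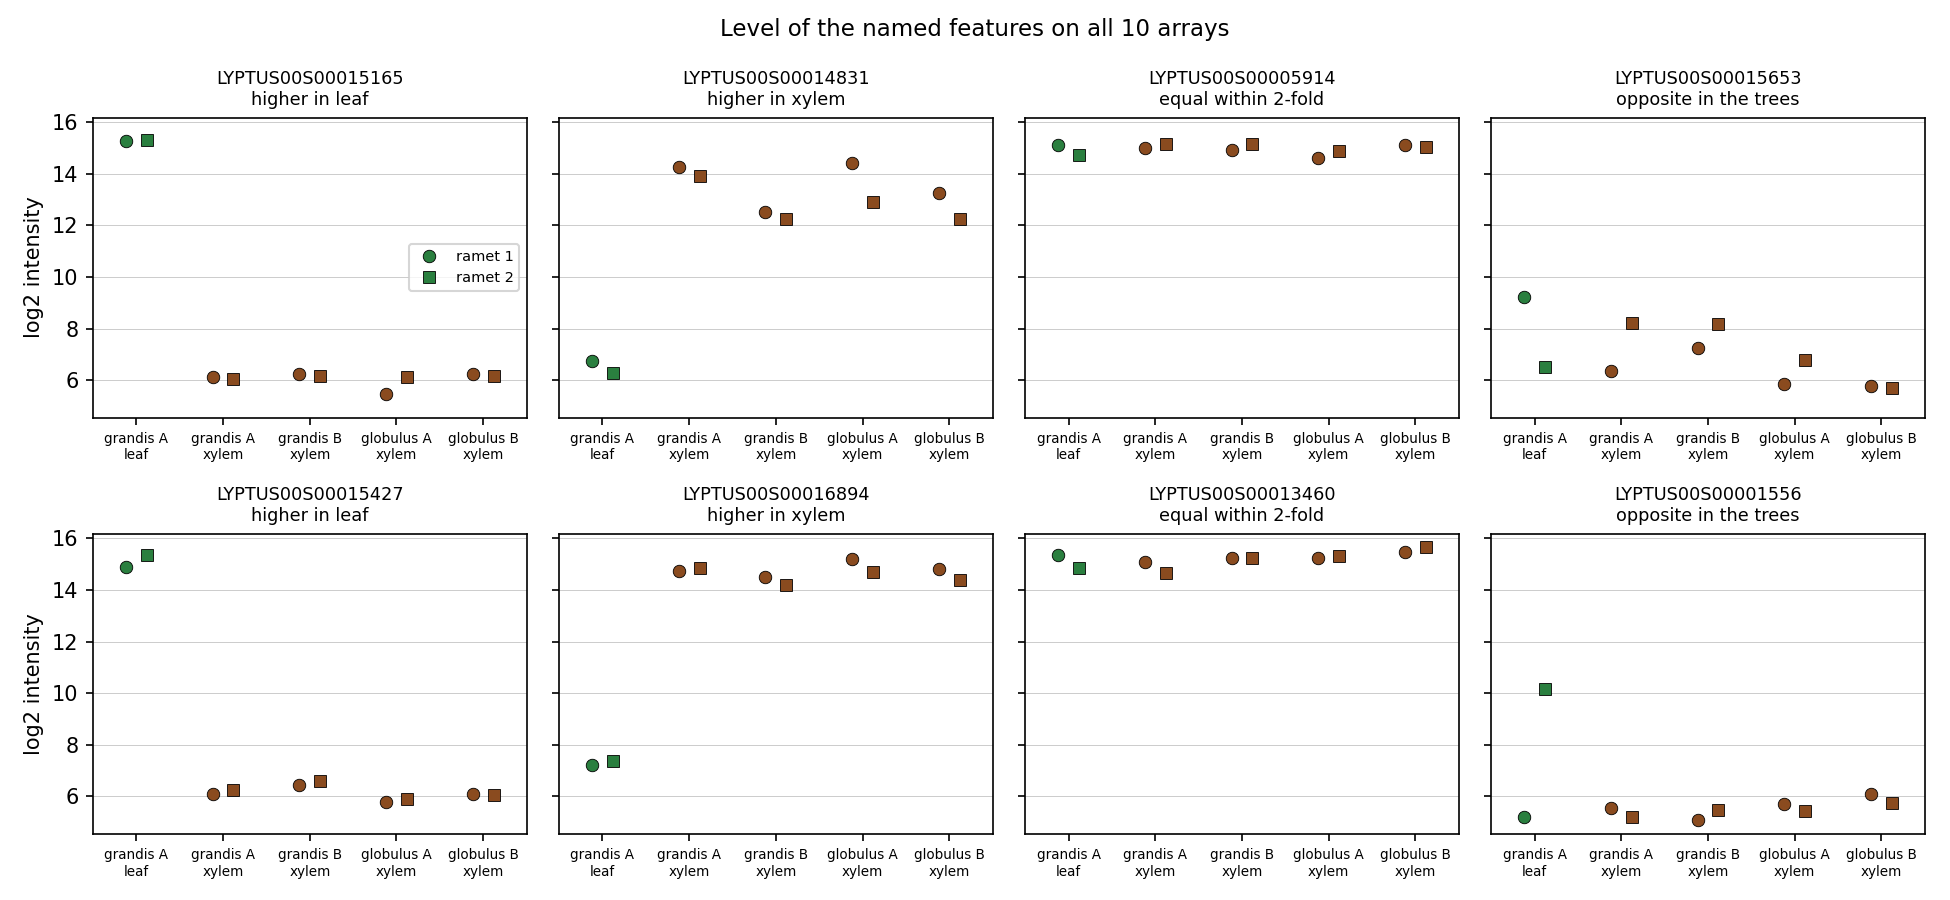
Log2 intensity of the 8 named features on all 10 arrays, with 1 panel per feature and 1 column per group, leaf in green and xylem in brown, ramet 1 as circles and ramet 2 as squares. LYPTUS00S00015165 and LYPTUS00S00015427 were bright on the leaf arrays alone, LYPTUS00S00014831 and LYPTUS00S00016894 were bright on all 8 xylem arrays, and LYPTUS00S00001556 was bright on 1 leaf array.

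The 2 trees did not show the leaf transcripts equally. The 2500 features higher in leaf had a median leaf-minus-xylem difference of 1.5 log2 units in the tree of ramet 1 and 2.38 in the tree of ramet 2, and for 2083 of them (83.3%) the difference was larger in the tree of ramet 2. The xylem transcripts did not show this imbalance. The 2770 features higher in xylem had medians of -1.89 in the tree of ramet 1 and -1.72 in that of ramet 2, and 47.2% were larger in the tree of ramet 2. Over all 21413 features 49.3% were larger in the tree of ramet 2. The difference between trees lay in the leaf arrays, where the median of ramet 1 minus ramet 2 was -0.81 over the leaf-higher features, against -0.04 on the xylem arrays. Over all features the median of leaf ramet 1 minus ramet 2 had the opposite sign, at 0.16. Leaf ramet 1 had the narrowest spread of intensities of the 10 arrays, with an interquartile range of 2.11 log2 units against 2.41 to 2.84 on the others. After quantile normalisation 71.7% of the leaf-higher features were still larger in the tree of ramet 2, with medians of 1.56 for ramet 1 and 2.16 for ramet 2. Their median of leaf ramet 1 minus ramet 2 was then -0.43. The part of the narrow array in the difference between trees was not tested. These features were chosen by the mean of the trees, so the values are a description, with no test.

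**Figure D3:**
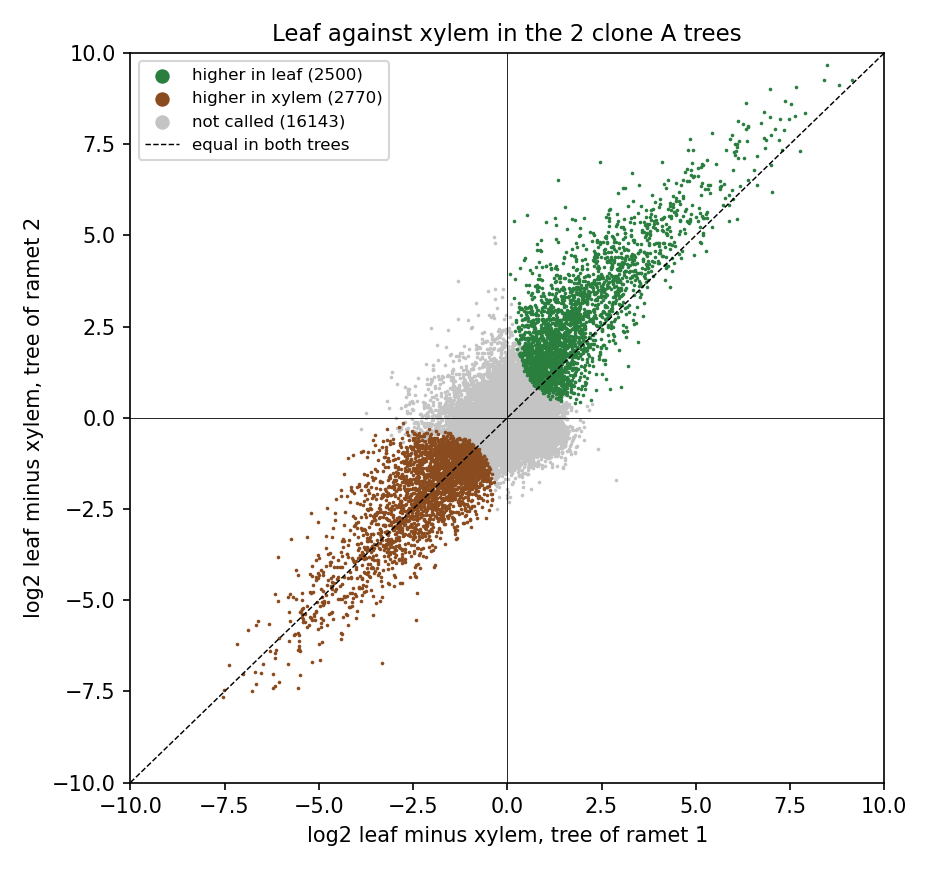
Leaf minus xylem log2 difference of each of 21413 features in the tree of ramet 1 (horizontal) and in the tree of ramet 2 (vertical), coloured green where leaf was called higher, brown where xylem was, and grey otherwise. Most green points lie above the dashed line of equality (2083 of 2500), while brown points lie on both sides of it.

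The leaf arrays of these genetically identical trees lay farther apart than their xylem arrays, a difference that 1 pair per tissue does not allow to test. Between the leaf arrays 3840 features (17.9%) were at least 2-fold apart, 1512 higher in ramet 1 and 2328 higher in ramet 2. Between the xylem arrays of the same trees 233 features (1.09%) were that far apart, and between those of clone B 200 (0.934%). The leaf-minus-xylem differences themselves reached 2-fold for 6243 features (29.2%) in the tree of ramet 1 and for 6012 (28.1%) in that of ramet 2. The SD of the difference between leaf ramets was 0.788 log2 units, while the disagreement between blocks alone would give an SD of 0.338. For the xylem arrays of clone A the values were 0.35 and 0.237. The blocks of leaf ramet 1 disagreed more than those of any other array, with an SD of 0.587 against 0.285 to 0.364, and the part of this array in the leaf differences beyond its blocks was not tested.

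The direction was opposite in the trees for 8960 of 21413 features, while 58.2% had the same direction, and 93 were at least 2-fold in opposite directions. A sign says little where the difference is small. The median absolute difference over all features was 0.60 log2 units in the tree of ramet 1 and 0.52 in that of ramet 2. LYPTUS00S00001556 had the most negative difference between trees. It was at 5.20 in leaf of ramet 1 and 10.16 in leaf of ramet 2, against 5.56 and 5.21 in xylem. Only the leaf of ramet 2 was bright, in both blocks of that array, and all other arrays of the study lay between 5.08 and 6.10. LYPTUS00S00015653 had the largest positive difference, at 9.23 in leaf of ramet 1 and 6.52 in leaf of ramet 2, against 6.34 and 8.22 in xylem. In that feature the tissues were reversed between trees, with leaf minus xylem at 2.89 log2 units in the tree of ramet 1 and -1.70 in the tree of ramet 2. Its xylem level also varied over the other clones, from 5.71 to 8.17. With 1 array per tissue and tree, neither difference between trees could be tested.

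Leaf was sampled in clone A alone, so only the xylem levels of the called features could be followed in other clones. For the leaf-higher set, median log2 intensity was 9.13 and 10.06 on the leaf arrays of ramets 1 and 2, against 7.22 and 7.29 on the clone A xylem arrays. On the 6 xylem arrays of other clones, whose levels did not enter the difference, the median was 7.18 to 7.40, close to that of clone A xylem. The xylem-higher features had medians of 7.90 and 7.74 in leaf, against 10.07 and 9.93 in clone A xylem, and 9.41 to 10.14 in the xylem of other clones, with the lowest value in ramet 2 of E. globulus clone B. There they made up 31.6% of the signal, against 42.1% and 38.9% in xylem of clone A. Over all features the medians of the 10 arrays lay between 7.78 and 7.87.

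**Figure D4:**
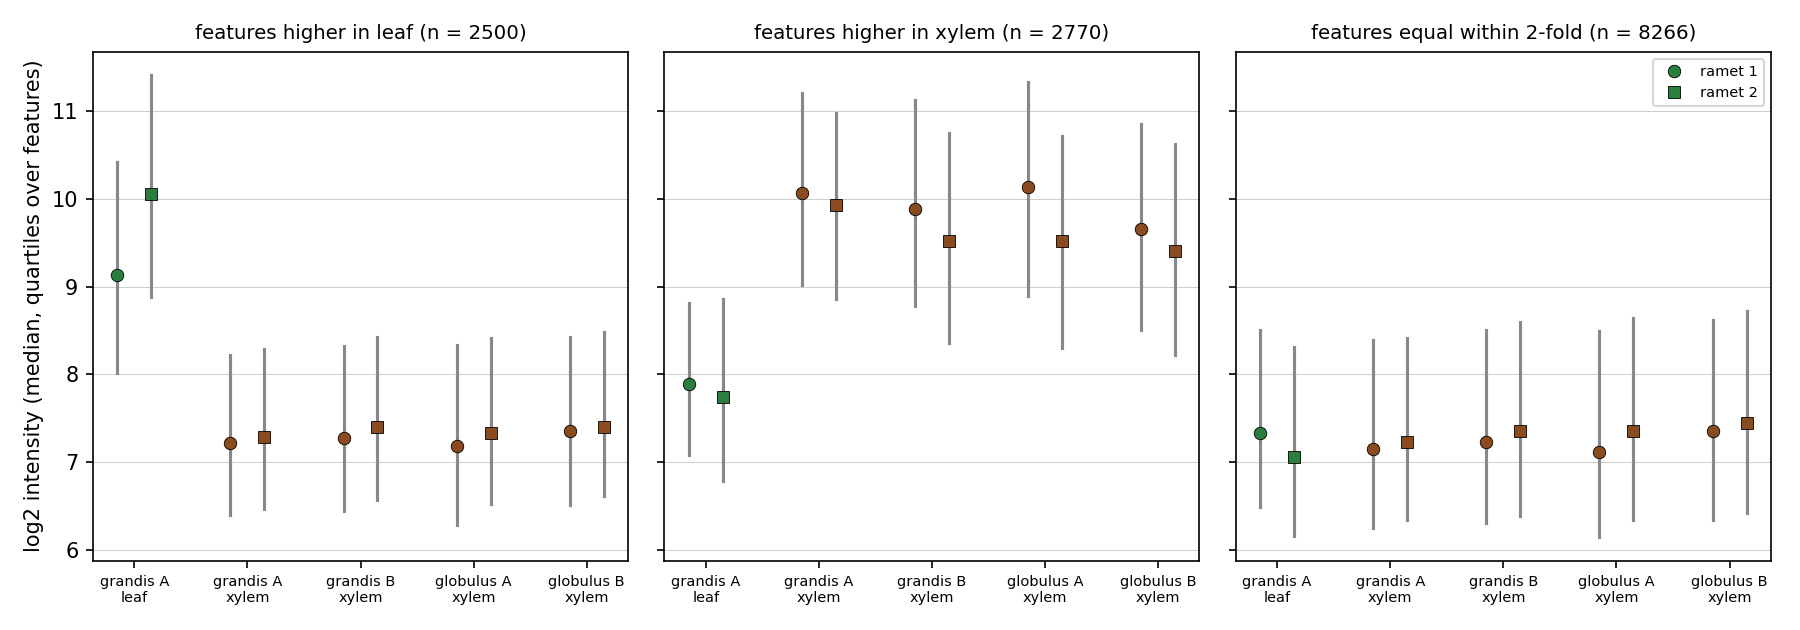
Median log2 intensity (points) and quartiles over features (bars) of the leaf-higher, the xylem-higher and the equal features, on each of the 10 arrays, leaf in green and xylem in brown. The leaf-higher features were at 9.13 and 10.06 on the leaf arrays and at 7.18 to 7.40 on all 8 xylem arrays.

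Called features were also placed by their level in the tissue where they were lower. When all features were split into 4 equal classes by their mean level in clone A xylem, 817 leaf-higher features (32.7%) lay in the dimmest class and 268 (10.7%) in the brightest. Of the equal features 36.2% lay in the dimmest class and 14.3% in the brightest, so a low level in xylem was not particular to the leaf-higher features. When they were split by their level in leaf, 554 xylem-higher features (20%) lay in the dimmest class and 531 (19.2%) in the brightest. By construction each class holds 25% of all features. Expressed as a share of the summed intensity of an array, the leaf-higher features made up 30.3% and 43.3% of the signal in leaf of ramets 1 and 2, against 4.88% and 5.04% in xylem. The xylem-higher features made up 9.32% and 8.22% of the signal in leaf, against 42.1% and 38.9% in xylem. Intensity depends on the probe as well as on the transcript, so such a share describes signal and not the number of transcripts, and the contrast itself chose these features.

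The lists of the brightest features overlapped less between leaf and xylem than within a tissue, and among the top 100 leaf ramet 1 shared more with xylem than leaf ramet 2 did. Of the 100 brightest features of leaf ramet 1, 66 were also among the 100 brightest of leaf ramet 2. With the 8 xylem arrays, leaf ramet 1 shared 25 to 38 of its 100 and leaf ramet 2 shared 17 to 20. Xylem arrays shared 66 to 88 with each other. For lists of 1000 the ranges overlapped, at 311 to 469 for leaf ramet 1 and 321 to 377 for leaf ramet 2, against 643 to 859 between xylem arrays.

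The called features were not spread evenly over the feature numbers, which run to 21442 in the IDs. In 43 consecutive classes of 500 numbers, the share called higher in leaf ranged from 2.62% to 28% (11.7% over all features) and the share called higher in xylem from 2.4% to 31.2% (12.9% over all). Up to number 8500 both kinds were common, at 14.2% for leaf and 19.4% for xylem. Beyond it, stretches rich in one kind and poor in the other followed each other. The longest run of classes with more leaf-higher than xylem-higher features was picked out from these calls. It took in the 6 classes from 11001 to 14000, which held 12.6% leaf-higher and 3.24% xylem-higher features. The class from 20501 to 21000 had 28% leaf-higher and 3.6% xylem-higher features. The next class, the last of the numbering and incomplete with 441 features, had 4.08% and 11.3%. The class from 17501 to 18000 had 2.62% leaf-higher and 10.1% xylem-higher features.

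Taken alone, the trees differed in the first stretch. In the 17 classes up to number 8500, features at least 2-fold higher in leaf outnumbered those at least 2-fold higher in xylem in 1 class in the tree of ramet 1 and in 10 classes in the tree of ramet 2. In the 6 classes from 11001 to 14000 they did so in all 6 in each tree. That run was picked by calls on the mean of the same trees, so this is no independent check of it. From 20501 to 21000, 30.6% of features were at least 2-fold higher in leaf in the tree of ramet 1 and 27.6% in that of ramet 2, and 3.8% and 4.4% were at least 2-fold higher in xylem. From 17501 to 18000 the leaf shares were 4.84% and 3.83%, and the xylem shares 11.7% and 12.3%. Brightness and the ramets moved along the numbers as well. The median level in the first class was 9.09 in leaf and 9.66 in xylem, against 7.22 and 7.34 in the last class. The class medians of leaf ramet 1 minus ramet 2 ran from -0.44 to 0.41, and their part in the pattern was not tested. The sources used here give neither how the numbers were assigned nor where the features lie on the array.

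**Figure D5:**
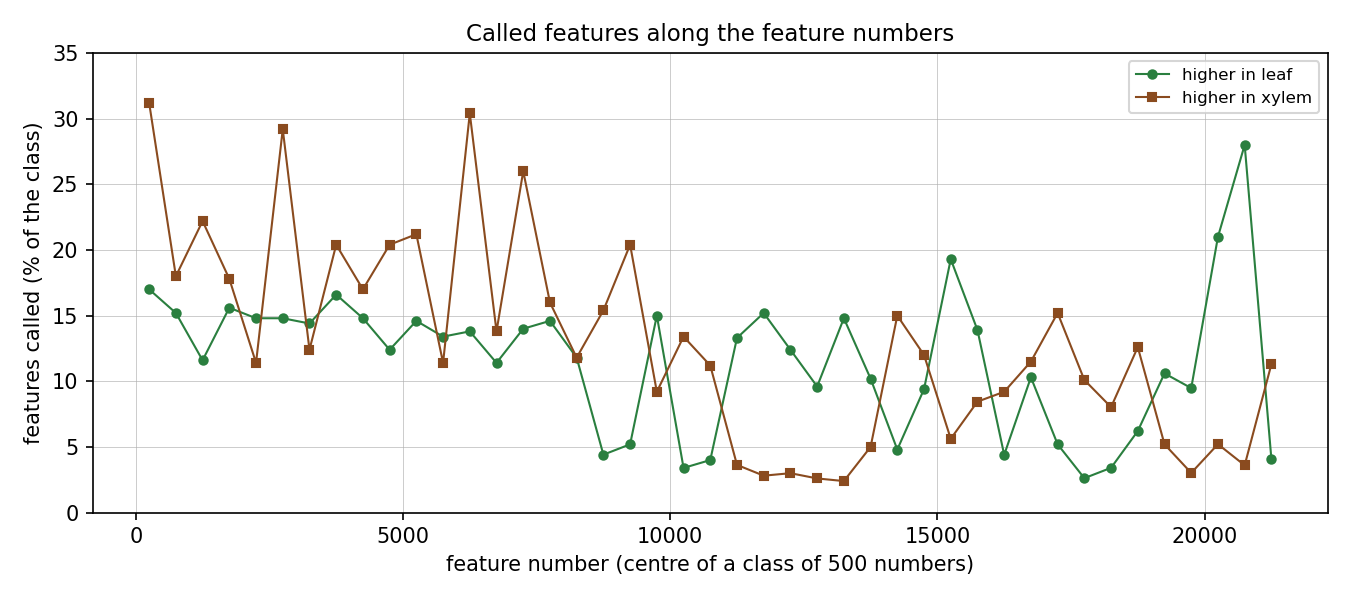
Percent of leaf-higher (green circles) and xylem-higher (brown squares) features in each of 43 classes of 500 consecutive feature numbers, plotted at the centre of the class. The leaf share reached 28% in the class from 20501 to 21000, where the xylem share was 3.6%, and the xylem share reached 31.2% in the first class.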

How the data were processed

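The authors deposited 1 file per array, with an RMA intensity on a linear scale for each block of each feature. RMA (robust multi-array average) was named in the submitters' processing notes without its settings. On 5 features fewer than 9 probe pairs were counted, per the file headers. The log2 of each deposited intensity was averaged over the 2 blocks, and no filter or further normalisation was applied. limma 3.58.1 in R 4.3.3 fitted 1 mean per group over all 10 arrays, with a tree term for the 4 clone A arrays, which left 4 residual degrees of freedom. P-values were adjusted by Benjamini-Hochberg over 21413 features. The fit was also run on simulated data, which were drawn with equal spread in every group. That run cannot show whether the fit holds where leaf ramets differ more than xylem ramets, so nothing is concluded from it. With 2 arrays per group their number limits the precision. The error is the spread between trees of 1 genotype, pooled over 5 groups of which 1 is leaf, so it came mostly from xylem. The SD of the ramet difference was 0.788 log2 units in leaf, against 0.35 in xylem of clone A and 0.385 in xylem of clone B. The pooled error may thus be too small for leaf, in the p-values and in the intervals, which was not tested.

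Per the labels, equal ramet numbers of clone A mark leaf and xylem of 1 tree, which makes these arrays paired. The ramet differences in leaf and in xylem correlated at r = -0.354 across features, where a shared tree effect alone would give a positive value. The leaf difference includes leaf ramet 1, the array with the narrowest spread and the largest disagreement between blocks. The part of that array in the correlation was not tested. Named features were, per direction, the 2 called ones with the largest difference in the less affected tree, then the 2 brightest equal ones and the 2 most unlike between trees. The comparison, the rules and the classes of feature number were chosen with earlier results of these data known. In the whole-series table, a column divided by 10000 was matched to an array file within 0.001 expression units. The column SE_EXPRS of the array files was not used here, since its definition was not given. Which features are the human negative controls of the design was not known here.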

Additional observations from a re-analysis of the deposited data

Results flagged for a closer look

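Of 4 measures taken on the 10 arrays (median, interquartile range, block disagreement and share of signal in the 100 brightest features), 1 had an array far from the rest. The SD between the blocks of E. grandis clone A leaf ramet 1 was 0.587 log2 units and 0.285 to 0.364 on the other arrays, and the gap to the next array was 0.738 of the whole range, above Dixon's critical value. Chance alone puts about 1 measure in 20 past this value.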

How the results depend on the processing

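The counts of called features stayed within 1.5 times their value under all alternatives run on the per-array files, with 3634 to 5485 features in all, 1736 to 2593 higher in leaf and 1890 to 2892 higher in xylem. Without the tree as a replicate block the count was 5380, of which 5159 were shared with the 5270. Which features were called changed more under other settings. Of the 5270, 4129 (78.3%) were called in the same direction over the 4 clone A arrays with tree as a block. With the array number range as a block 3625 (68.8%) were. The 4 named called features kept their call under each of the alternatives on the per-array files (highest limma adjusted p 0.000138). They were chosen for very large differences, so this says little about the other called features. Each of the 2 named equal features stayed equal within 2-fold under 11 of 15. Leaving out 1 clone A array gave 4156 to 4652 called features, with the difference then resting on the other tree. Within the higher range of array numbers (both leaf arrays against xylem ramet 1, chosen after seeing the data), 3789 were called and 3310 were equal within 2-fold. The count of equal features was 1731 over the 4 clone A arrays with tree as a block and 6132 without it, 2478 after a filter that removed dim features, 3835 with the array number range as a block, and 2509 to 2956 without 1 array. The equal count was higher than 8266 at 11824 with 50 added to the intensities, 8713 after quantile normalisation and 8646 over all 10 arrays without the tree block. The filter left fewer features to count. The fits that dropped the tree block or the other clones left the fitted differences as they were. For the remaining settings the cause was not tested. The 4888 features called with an estimate of at least 2-fold became 2129 under limma's treat, which tests against 2-fold itself. With the whole-series table and its columns as named, 1 feature was called (1 higher in leaf, 0 higher in xylem, 1192 at an unadjusted limma p under 0.05), since other samples then stood as leaf. With 50 added to the intensities, the tree difference was -3.94 for LYPTUS00S00001556 and 3.61 for LYPTUS00S00015653.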

Other observations

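The 100 brightest features held 14.3% and 16.5% of the summed intensity in leaf of ramets 1 and 2, against 15.1% and 14.7% in xylem of the same trees, with means of 15.4% ± 1.57 and 14.9% ± 0.29 (SD, n = 2 each). With 2 arrays per tissue an exact two-sided permutation test cannot give a p below 0.333, so the means could not be told apart or called alike. The 6 xylem arrays of other clones lay between 14.1% and 15.5%. For the 1000 brightest the leaf mean was 45.4% ± 4.46 and that of xylem 44.3% ± 1 (SD, n = 2 each). The leaf arrays thus enclosed the xylem arrays of clone A, with leaf ramet 1 below and leaf ramet 2 above them at 42.2% and 48.5%.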
